A study of Mus musculus with 2 samples.

Results

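The genes described are 4 sodium-driven glutamate transporters of the Slc1 family and 2 enzymes of glutamate metabolism, measured in RNA of mouse Purkinje cells. They were taken by symbol: Slc1a6 and Slc1a1 as neuronal transporters, Slc1a3 and Slc1a2 as transporters of Bergmann glia, and the enzymes Glul and Glud1. All 6 were found, among 43346 genes with Ensembl identifiers in the deposited tables. Purkinje cells were laser-captured and pooled, 30 to a library, and 2 such pools were sequenced. The strain was B6CASTF1/J, a first-generation cross of castaneus and C57BL/6, and the animals were adult males aged 14 months. No treatment is given, and there is no other group. The pools are numbered as biological replicates but share 1 donor identifier, so the standard deviation (SD, n = 2) shows how far these libraries differ and may hold technical spread alone.

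Glutamate released by parallel and climbing fibres is removed from the synapse by these transporters, which carry it into cells with sodium. Bergmann glia, the astrocytes that wrap Purkinje cell dendrites, take up most of it through GLAST (Slc1a3) and GLT-1 (Slc1a2), while Purkinje cells carry EAAT4 (Slc1a6) and EAAC1 (Slc1a1). Glia turn the glutamate into glutamine with glutamine synthetase (Glul), and glutamate dehydrogenase (Glud1) feeds it into the mitochondrial citric acid cycle.

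The 4 transporters share coding sequence around their sodium- and substrate-binding site, shown to give the family likeness and the letters that tell the members apart. The stretches are in GENCODE M21 transcripts on mouse build mm10 (GRCm38), 5′ to 3′ on the coding strand, with the 42 of 60 bases identical in all members in capitals. They lie within single exons at chr10:78801875-78801934 (plus strand), chr19:28905406-28905465 (plus), chr15:8642244-8642303 (minus) and chr2:102761088-102761147 (plus), in the order printed.
Slc1a6: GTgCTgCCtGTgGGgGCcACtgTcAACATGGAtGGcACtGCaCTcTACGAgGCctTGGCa
Slc1a1: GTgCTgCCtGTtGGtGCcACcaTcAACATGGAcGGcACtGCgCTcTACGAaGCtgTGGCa
Slc1a3: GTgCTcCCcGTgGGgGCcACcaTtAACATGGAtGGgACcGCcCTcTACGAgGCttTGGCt
Slc1a2: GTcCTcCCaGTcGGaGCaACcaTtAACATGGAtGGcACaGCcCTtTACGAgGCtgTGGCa

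Between pairs, 46 to 51 of the 60 bases were identical, with Slc1a6 and Slc1a1 the closest at 51 and Slc1a6 and Slc1a2 the farthest at 46. No word of 100 bases in the main transcripts of Slc1a6 and Slc1a3 occurred in a transcript of another gene. In Slc1a2 71 of 11496 such words did, all shared with Gm13872, an antisense gene within it that had 36.1 expected counts in pool 2 and 19 in pool 1. In Glul 74 of 2693 words were shared, with Teddm2 and the processed pseudogene Glns-ps1. In Glud1 118 of 3291 were shared, with Glud-ps and Gm43444, whose GENCODE M21 identifiers were not found in the deposited tables. Teddm2 had 3 counts in pool 2 and 1 in pool 1, and Glns-ps1 had 18.3 and 24.0. Slc1a1 differed from these, since 1029 of its 3701 words (27.8%) lay in 4430402I18Rik, a gene on the opposite strand with 12 and 18 counts in pools 2 and 1. The use of strand in counting is not stated, so reads of Slc1a1 and that gene cannot be told apart with certainty. Of other annotated genes inside the members, Gm37310, on the strand of Slc1a3, had 110 counts in pool 2 and 86 in pool 1, while Gm5822 in Slc1a1 and Mir8114 at Glul had 0 in both.

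Depth was similar, at 28709397 expected counts in pool 2 and 31503819 in pool 1, of which spike-ins were 0.411% and 0.211%. Purkinje markers were present, as all 10 on the list were at or above 1 TPM, a deposited abundance scaled for transcript length and library, in both pools. The highest were Gng13 (38512 ± 1326 TPM), Pcp4 (25537 ± 1651 TPM) and Pcp2 (16995 ± 989 TPM), which code for a G protein subunit and calmodulin- or G protein-binding proteins. Markers of Bergmann glia and astrocytes were present too. Of 13 such genes, members excluded, 12 were at or above 1 TPM in both pools, none had 0 counts, and they summed to 3040 TPM in pool 2 and 1803 TPM in pool 1. Sparcl1, Gja1 and S100b led them at 686 ± 196, 622 ± 311 and 370.1 ± 140.5 TPM, and Gfap, the astrocyte filament gene, was the exception at 0.47 and 0.50 TPM in pools 2 and 1. In a pool, fewer cells of a type and less RNA per cell cannot be told apart. How much of each member's RNA came from glia or other cells caught with the Purkinje cells was not tested. The other lists given here were low beside these 2. In pools 2 and 1, granule cell markers summed to 38.2 and 29.1 TPM (4 of 7 at or above 1 TPM in both). Interneuron markers summed to 3.82 and 4.04 (1 of 5) and oligodendrocyte markers to 53.9 and 37.3 (3 of 7). In each pool the oligodendrocyte sum was above the TPM of every member except Slc1a3. That sum adds 7 genes, and no single one of them was above Glul in either pool. Oligodendrocyte precursor markers summed to 0.20 and 0.06 TPM (0 of 3, with Gpr17 at 0 in both pools), microglial markers to 3.62 and 4.94 (1 of 7), and endothelial and mural markers to 13.7 and 19.0 (2 of 6).

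Of the neuronal transporters, Slc1a6 was modest and Slc1a1 nearly absent. Slc1a6 (ENSMUSG00000005357.8, chr10:78780496-78814765, plus strand), the transporter best known from Purkinje cell spines, had 11.6 TPM in pool 2 and 23.7 TPM in pool 1, from 807 and 1917 counts. Pool 2 was the lower one, and the mean was 17.7 ± 8.58 TPM. All 10 Purkinje markers had higher TPM than Slc1a6 in both pools, the lowest being Rgs8, a regulator of G protein signalling, at 111 and 98.6 TPM in pools 2 and 1. Slc1a6 stood at rank 2124 of 21474 protein-coding genes by TPM in pool 2 and at rank 1218 in pool 1.

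Slc1a1 (ENSMUSG00000024935.6, chr19:28835049-28913960, plus strand), which many neurons carry on cell bodies and dendrites, had 0.04 TPM in pool 2 and 0.29 TPM in pool 1. Those values rest on 5 and 44 counts. It was below 1 TPM in both pools, the only member to be so, and its counts set how firmly the level can be stated. As CPM, its share of a library's gene counts, the exact 95% binomial intervals were 0.0568 to 0.408 in pool 2 and 1.02 to 1.88 in pool 1. These intervals do not overlap, and they cover counting error only.

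Both glial transporters were detected, and Slc1a3 was by far the highest of the members. Slc1a3 (ENSMUSG00000005360.10, chr15:8634124-8710764, minus strand) had 2298 TPM in pool 2 and 1309.5 TPM in pool 1, from 325462 and 215386 counts. It held rank 44 of the protein-coding genes in pool 2 and rank 74 in pool 1. In both pools it was above all 13 markers of Bergmann glia and astrocytes, of which Gja1, the gap junction protein connexin 43, had 842 and 401 TPM in pools 2 and 1. It was also above 6 of the 10 Purkinje markers in pool 2 and 5 in pool 1.

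Slc1a2 (ENSMUSG00000005089.11, chr2:102658659-102790784, plus strand), the main transporter of forebrain astrocytes, had 39.4 TPM in pool 2 and 17.6 TPM in pool 1, with 15727 and 8237 counts. The large counts at a modest TPM go with its long transcript, of 11406 and 11496 effective bases in pools 2 and 1. Per length, Slc1a3 was 58.3-fold higher than Slc1a2 in pool 2 and 74.2-fold higher in pool 1, a mean log2 difference of 6.04 ± 0.25.

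**Figure D1:**
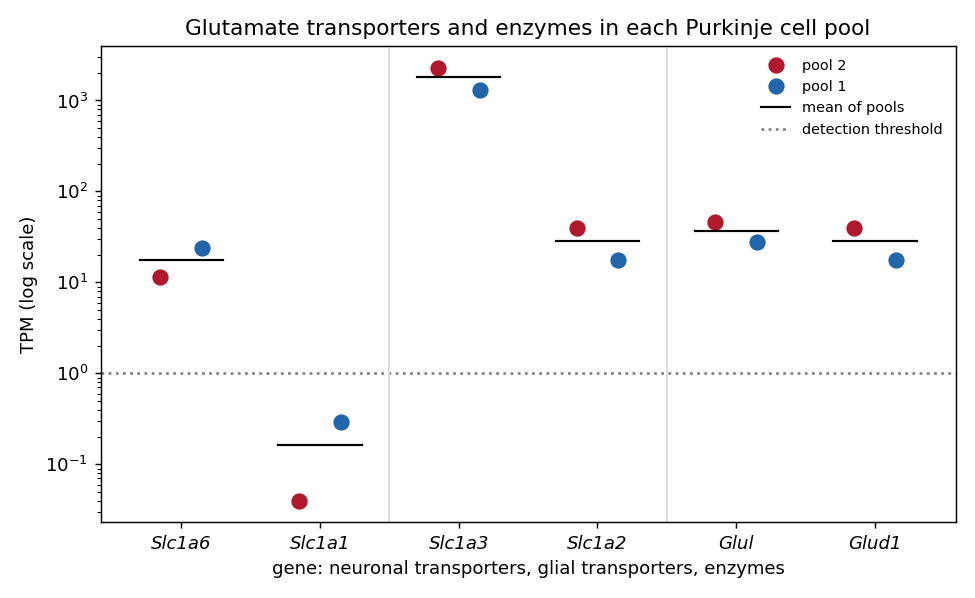
TPM on a log scale (vertical axis) of each gene (horizontal axis) in pool 2 (red, left) and pool 1 (blue, right), with a bar at the mean and a dotted line at 1 TPM. Slc1a3 stands above all others at 2298 and 1309.5 TPM, Slc1a1 lies under the line in both pools, and pool 2 is lower than pool 1 for the neuronal transporters alone.

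Set against each other, the neuronal transporters made up a small part of the transporter RNA. Slc1a6 and Slc1a1 together had 11.6 TPM against 2338 TPM for Slc1a3 and Slc1a2 in pool 2, and 24.0 against 1327 TPM in pool 1. That was 0.495% of the summed TPM of the 4 transporters in pool 2 and 1.78% in pool 1, and Slc1a3 alone was 97.8% and 96.9%. On the log2 scale of summed TPM, neuronal minus glial was -7.65 in pool 2 and -5.79 in pool 1. The mean of -6.72 had an SD of 1.32 over the pools, so the gap between the classes was larger than the spread between the pools. The value fell by 1.86 between the pools, pool 2 minus pool 1, with a 95% counting interval of -1.98 to -1.74 (normal approximation on the log counts). No test across samples was run, and with 2 pools the smallest two-sided p that an exact permutation test of paired signs can give is 0.5.

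The enzymes lay close to Slc1a2. Glul (ENSMUSG00000026473.11, chr1:153899944-153909723, plus strand) had 45.6 TPM in pool 2 and 27.7 TPM in pool 1, from 4297 and 2994 counts. Its mean was 36.7 ± 12.7 TPM. Slc1a3 exceeded it 50.4-fold in pool 2 and 47.3-fold in pool 1, so this pair kept nearly the same ratio in both pools (log2 5.61 ± 0.06). The ratio of the glial transporters, Slc1a3 over Slc1a2, moved more (log2 6.04 ± 0.25). Glud1 (ENSMUSG00000021794.11, chr14:34310727-34345265, plus strand), which is mitochondrial, had 39.9 TPM in pool 2 and 17.4 TPM in pool 1, with 4426 and 2243 counts. The mean was 28.7 ± 15.9 TPM, and the log2 ratio of Slc1a2 over Glud1 was -0.02 in pool 2 and 0.02 in pool 1. That ratio had the smallest SD of any pair of members (0.03).

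The order of the levels was in part the same in both pools. Slc1a3 was first, Glul next, Slc1a2 at rank 4 and Slc1a1 last in each. Slc1a6 was at rank 5 in pool 2 and rank 3 in pool 1, and Glud1 at rank 3 in pool 2 and rank 5 in pool 1. By mean TPM, Glul, Glud1, Slc1a2 and Slc1a6 ran from 36.7 to 17.7, and neighbours in that order differed by less than the larger of their SDs between pools. Slc1a3 at the top and Slc1a1 at the bottom were separated from these by more than it.

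Each gene was then compared between the libraries with an exact binomial test on counts scaled by TMM (trimmed mean of M values), adjusted over all 14495 genes with at least 10 counts in total. This compares these libraries, not conditions, and has no replicate check. It called 65.8% of all genes at an adjusted p under 0.05, with 33.7% higher and 32.1% lower in pool 2, a background against which a call on a member has to be read. All 6 members were called, 4 higher and 2 lower in pool 2, and their median log2 ratio was 0.51 against 0.00 over all genes tested. Of all calls, TMM put 51.2% on the higher side in pool 2, total counts put 64.2% there, and spike-in totals 14.3%. These 2 scalings moved the median of all genes to 0.19 (total counts) and -0.78 (spike-in totals), and the directions below are those under TMM. Red blood cell markers also differed between the pools, since the 4 of 5 at or above 1 TPM in both, with Alas2 below it, made up nearly all of a list sum of 16.3 TPM in pool 2 and 2453 TPM in pool 1. Their part in the results was not tested.

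Both neuronal transporters were lower in pool 2 under each scaling. The log2 ratio of pool 2 over pool 1 was -1.30 for Slc1a6 (exact 95% interval -1.42 to -1.18, exact binomial test with Benjamini-Hochberg adjusted p = 7.36e-110). It was -3.19 for Slc1a1 (exact interval -4.88 to -1.86, adjusted p = 1.15e-08), which rests on few reads. All 10 Purkinje markers had a larger ratio than Slc1a6, from -0.53 to 0.11 with a median of -0.30, and 11.6% of all genes tested had a smaller one. Slc1a6 thus lay between percentiles 10 and 90 of all genes tested (-1.50 and 1.49), and Slc1a1 lay below them. Of these markers, 1 was called higher and 9 lower in pool 2 under TMM, against 3 and 7 under total counts, and on TPM 5 of 10 were higher in pool 2.

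The glial transporters and both enzymes were higher in pool 2 under TMM. The log2 ratio was 0.55 for Slc1a3 (exact interval 0.54 to 0.55) and 0.88 for Slc1a2 (0.84 to 0.92), both with an adjusted p computed as 0. It was 0.47 for Glul (exact interval 0.40 to 0.54, exact binomial adjusted p = 3.69e-42) and 0.93 for Glud1 (0.86 to 1.00, adjusted p = 1.48e-142). The 13 markers of Bergmann glia and astrocytes had a median of 0.53, and 11 were called higher and 1 lower in pool 2, against 1 higher and 8 lower under spike-in totals. Slc1a3 had a larger ratio than 7 of these 13 markers and Glul than 4, while Slc1a2 and Glud1 had a larger ratio than all 13. Of all genes tested, 72.5% had a smaller ratio than Slc1a3 and 82.0% a smaller one than Glud1, so these shifts lie within the range of ordinary genes. Under spike-in totals the ratio turned to -0.23 for Slc1a3 and -0.31 for Glul, while Slc1a2 stayed at 0.10 and Glud1 at 0.15.

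**Figure D2:**
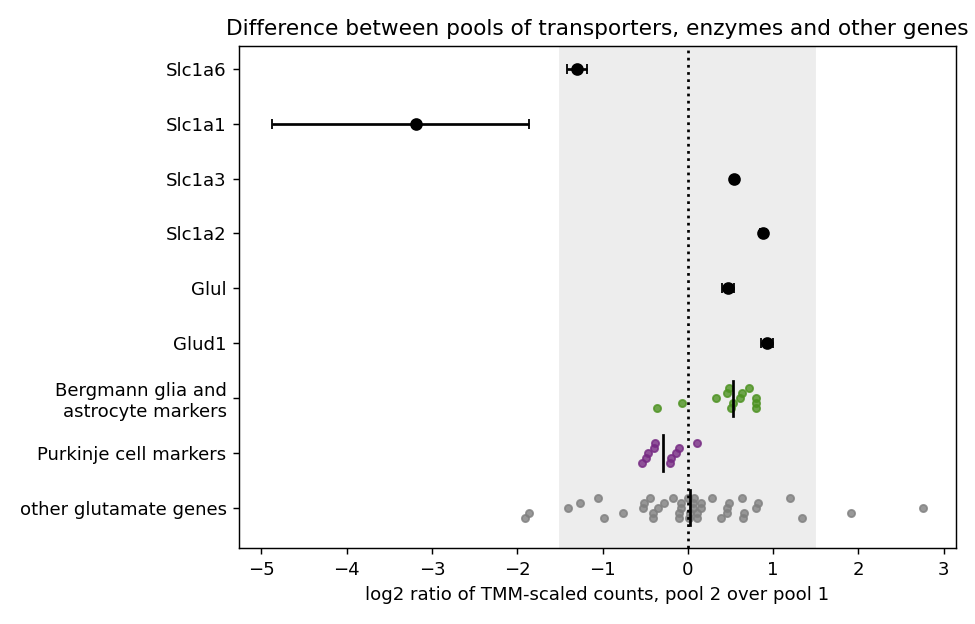
Log2 ratio of TMM-scaled counts, pool 2 over pool 1 (horizontal axis), for the 6 genes (black points with exact 95% counting intervals) and for marker lists and other glutamate genes (1 point a gene, black bar at the median), with a dotted line at the median of all genes tested and a grey band from their percentile 10 to their percentile 90. Slc1a6 and Slc1a1 lie left of all Purkinje markers, and the other 4 lie to the right. Slc1a1 alone lies outside the band.

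Nearly all reads of each member were assigned to 1 protein-coding transcript. Slc1a6 had a single transcript in the tables. For Glud1 and Slc1a1, 1 transcript held 100% of the gene's TPM in both pools, each the longest of 5. For Slc1a1 this rests on 5 and 44 counts, and its posterior mean share was 31.1% in pool 2 and 77.2% in pool 1. The intron-retaining ENSMUST00000161340.1 of Slc1a1, with 0 counts in both pools, had posterior mean shares of 40.5% in pool 2 and 13.4% in pool 1. The main transcript of Glul held 100% in pool 2 and 98.7% in pool 1, where 6.78 counts went to a transcript annotated as intron-retaining (ENSMUST00000154576.1). The main transcript of Slc1a3 (ENSMUST00000005493.9, 4163 bases) held 99.5% in each pool. Its remaining counts lay on minor transcripts, among them the non-coding ENSMUST00000153455.3 at 0.24% and 0.18% of TPM in pools 2 and 1 and the intron-retaining ENSMUST00000133309.1 at 0.12% and 0.19%. Transcripts annotated as intron-retaining held 273 of the counts of Slc1a3 in pool 2 and 198 in pool 1.

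Slc1a2 is known for isoforms with different carboxyl ends. The ends of their coding sequences are shown because they carry the difference between the a and b forms of GLT-1, with shared bases in lower case and bases particular to each end in capitals, through the stop codon (plus strand, mm10). The a end lies at chr2:102777641-102781534, across an intron, and the b end at chr2:102777641-102777694.
GLT-1a end: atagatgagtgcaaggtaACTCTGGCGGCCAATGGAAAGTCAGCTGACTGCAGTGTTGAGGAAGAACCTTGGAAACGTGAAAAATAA
GLT-1b end: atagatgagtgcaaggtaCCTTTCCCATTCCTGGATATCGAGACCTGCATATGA
The first end, of the a form, is spliced to a later exon and the second, of the b form, runs on in the same exon. ENSMUST00000080210.5, with the a end and 11595 bases, held 99.1% of the gene's TPM in pool 2 and 100% in pool 1. ENSMUST00000111213.3, with the b end, held 0.95% in pool 2, from 26.1 counts, and had 0 counts in pool 1. The remaining 10 transcripts of Slc1a2 had 0 counts in both pools. In the posterior mean estimates, the share of ENSMUST00000080210.5 was 95.7% in pool 2 and 93.7% in pool 1. Those of ENSMUST00000111213.3 and ENSMUST00000005220.6, both with the b end, were 0.52% and 0.46% in pool 2 and 0.07% each in pool 1. The rest lay on transcripts with 0 counts in both pools. Reads in sequence shared by the transcripts were split by the authors' model, and reads on the 69 and 36 bases particular to each end cannot be counted from the tables.

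Around these genes, other glutamate genes were lower than Slc1a3 without exception, and 5 had a higher mean TPM than Glul. On 10 lists with 49 genes of glutamate metabolism and transport, 29 were at or above 1 TPM in both pools. Over all genes tested, TMM called 33.7% higher and 32.1% lower in pool 2. Of the 43 listed genes with enough counts to test, 14 were called higher and 14 lower in pool 2 and 15 were not called. Their calls are thus close to that background, and their median log2 ratio was 0.03. Under total counts 19 were called higher and 11 lower, and under spike-in totals 3 higher and 34 lower, so each direction given for these genes is relative to the median of all genes under TMM. Relatives of the transporters were low: the neutral amino acid transporters Slc1a4 (1.16 ± 0.177 TPM) and Slc1a5 (0.115 ± 0.0495), and Slc1a7, a transporter known from retina, with 2 counts in pool 2 and 0 in pool 1, where a count of 0 allows up to 3.

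Glutamate-forming enzymes included several of moderate level. The aspartate transaminases Got1 (113 ± 9.54 TPM) and Got2 (44.7 ± 3.03) were above Glul in mean TPM, and both were called lower in pool 2 (log2 -0.44 and -0.40). Of 8 transaminases 7 had enough counts to test, and of these 2 were called higher and 4 lower in pool 2. Psat1, of serine synthesis, had 24.8 ± 7.18 TPM. Gls2, which frees glutamate from glutamine, had 0.505 ± 0.403 TPM. In the route from proline and ornithine, Oat, the ornithine transaminase, had 31.6 TPM in pool 2 and 14.8 TPM in pool 1 and was called higher in pool 2 (log2 0.82). Prodh had 1.35 ± 0.0495 TPM, and Aldh18a1 and Aldh4a1 had 0.570 ± 0.410 and 0.235 ± 0.106.

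Genes that use glutamate or glutamine were led by GABA synthesis. Gad1, which turns glutamate into GABA, had 657 ± 25.0 TPM and Gad2 had 12.7 ± 1.15. Abat, which breaks GABA down, had 54.3 ± 7.73 TPM, and Aldh5a1, the next enzyme, had 6.79 ± 0.891. Of these 4 Gad1 alone was called under TMM, lower in pool 2 (log2 -0.35). Under total counts 3 were called higher and 1 lower, and under spike-in totals all 4 were called lower. Among 9 genes of other synthesis, Asns, the asparagine synthetase, was the highest at 12.5 ± 2.40 TPM, then Gmps, of guanine nucleotide synthesis, at 5.03 ± 0.354 and Gclc, of glutathione synthesis, at 4.28 ± 0.700; 2 of these 9 were called higher and 3 lower in pool 2.

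RNAs for other transport of glutamine and glutamate were at modest levels. The glutamine transporters Slc38a1, Slc38a2 and Slc38a3 had 25.2 ± 9.06, 7.97 ± 0.332 and 2.12 ± 1.52 TPM. Slc38a3, which moves glutamine out of astrocytes, was called higher in pool 2 (log2 1.34), as was Slc38a1 (0.48), while Slc38a2 was called lower (-0.18) but not under total counts. Of genes for vesicular loading and cystine exchange, Slc3a2, the heavy chain of several amino acid exchangers, was at 6.65 ± 2.86 TPM, and the other 4 were below 1 TPM in both pools. Of the mitochondrial carriers, the aspartate-glutamate carrier Slc25a12 had 7.32 ± 2.46 TPM and the glutamate carriers Slc25a18 and Slc25a22 had 5.90 ± 2.95 and 4.58 ± 1.79. Slc25a18 and Slc25a22 were called higher in pool 2 (log2 0.80 and 0.46), and Slc25a13 had 0.195 ± 0.0354 TPM.

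RNAs of proteins known to bind the transporters were at modest levels among those named here. Slc9a3r1, a scaffold of GLAST, had 12.1 ± 5.22 TPM. Arl6ip5, which binds EAAC1, had 3.41 ± 2.26 TPM. Both were called higher in pool 2 under TMM, with a log2 ratio of 0.64 for Slc9a3r1 and a larger one for Arl6ip5.

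**Figure D3:**
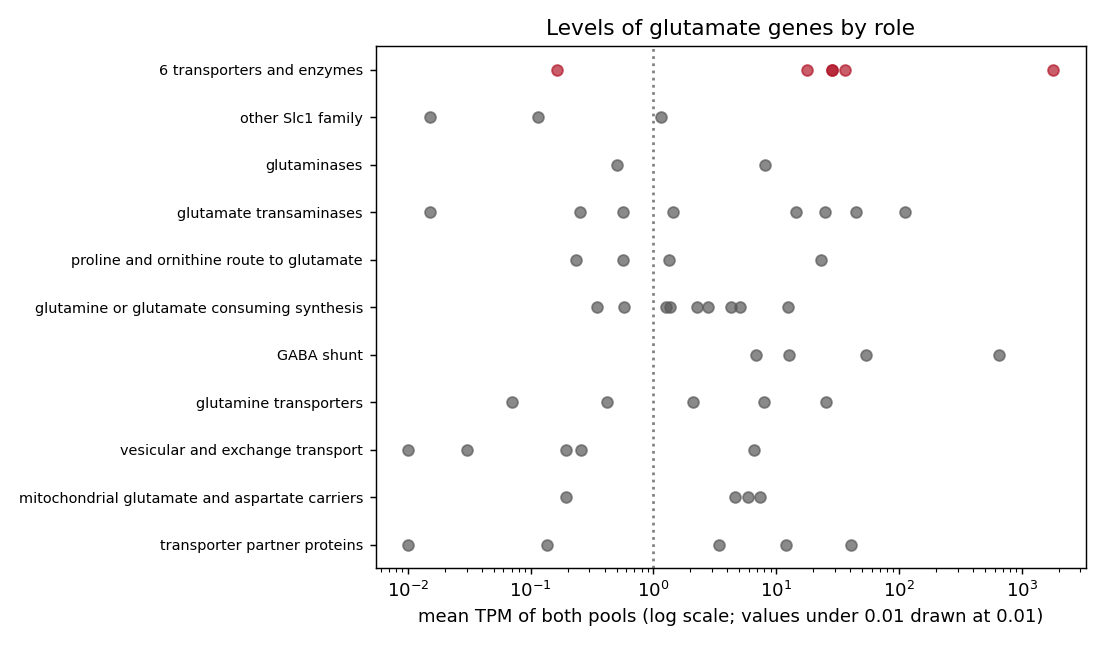
Mean TPM of both pools on a log scale (horizontal axis) for the 6 genes (red, top row) and for 10 lists of other glutamate genes (grey, 1 point a gene), with a dotted line at 1 TPM. Slc1a3 lies to the right of every other gene, with Gad1 next at 657 TPM and Got1 at 113 TPM.

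Likeness to other genes was measured as the distance in log2(TPM + 1) over both pools, so it rests on 2 values a gene. Of protein-coding genes, the nearest to Slc1a6 were Zfp965 at 0.0369 and Psmd12 at 0.114. Slc1a1 lay nearest to Tcte2 (0.0112) and 1700037C18Rik (0.0177), and Slc1a3 to Usp50 (0.174) and Ndufv3 (0.290). Slc1a2 and Glud1 lay among each other's closest genes, 0.0247 apart, and both had Dbp as the nearest. Glul lay nearest to Cdk14 (0.0663) and Tubb3 (0.0679).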

How the data were processed

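RNA over a minimum length from 2 Purkinje cell pools was sequenced after preparation by the manual of a SMARTer Ultra Low RNA kit, per the labels. The build was mm10 with GENCODE M4, per a text deposited with each sample. Aligner, quantifier and use of strand: not given in the sources used here. The authors deposited expected counts, TPM (also as posterior means), FPKM and, for transcripts, the percent of a gene's TPM, per the file headers. Symbols and places were taken from GENCODE M21, also on mm10, where 42462 of 43346 identifiers matched. Entries with numeric identifiers held 0.000194% (pool 2) and 0.000412% (pool 1) of expected counts and, like spike-ins, stayed out of gene totals.

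Expected counts were rounded. Genes with at least 10 counts in total were compared by a two-sided exact binomial test (scipy 1.17.1), given totals scaled by TMM in edgeR 4.0.16, with Benjamini-Hochberg adjustment over all genes and a threshold of 0.05. The test was checked on data simulated with counting error alone, a check that does not cover other variation between libraries. Intervals are exact at 95% and cover counting error only, since reads were not tied to molecules. Alternatives were DESeq2 1.42.0 size factors, total counts, spike-in totals, no low-count filter, other deposited estimates, other detection thresholds and leaving out each pool.

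The members and lists were chosen with earlier results of these data known. Named were all members, the 3 highest detected genes of each list of glutamate genes (all, for lists under 5), the 2 protein-coding genes nearest each member, and genes that overlap a member or share its sequence. Results for some genes that this rule names are not reported here. Of markers, the 3 highest Purkinje and glial genes were named by rule, and Rgs8, Gfap, Gpr17 and Alas2 after their values were seen. The top genes of the low marker lists are given only in their sums.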

Additional observations from a re-analysis of the deposited data

How the results depend on the processing

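All 6 members stayed called under DESeq2 size factors, total counts, spike-in totals and no low-count filter. Of all genes tested, these settings called 65.8%, 66.4%, 75.9% and 52.8%, in that order, so most genes stayed called as well. Under spike-in totals the log2 ratio of pool 2 over pool 1 turned to -0.23 for Slc1a3 and -0.31 for Glul, against 0.55 and 0.47 under TMM. The scaling moves all genes alike, so both stayed above the median of all genes. Neuronal minus glial transporter level was -7.65 and -5.79 when each pool was left out. It and its change between pools kept their direction in posterior mean TPM, in counts with no length scaling and with a pseudocount of 1, and the level did so in FPKM as well. Members detected in both pools numbered 5 at thresholds of 0.1, 1 and 5 TPM, in posterior means and in either pool alone. Rescaled to nuclear protein-coding genes, the mean was 33.2 TPM for Slc1a6 and 3300.3 for Slc1a3. Averaged over the pools, the posterior mean share of the main Slc1a1 transcript was 54.2% (31.1% in pool 2 and 77.2% in pool 1), against 100%. The cause was not tested. No paired analysis was possible because the pools form a single group. Slc1a1, with 5 and 44 counts, is limited by depth.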
